A study of Mus musculus with 15 samples.

Results

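Podocyte genes were followed in mouse kidney RNA-seq. The 8 genes were chosen by name, as Nphs1, Cd2ap, Magi2, Podxl, Ptpro, Synpo, Actn4 and Wt1. A transcript listed for all 15 mice was found for 7 of the 8, out of 13929 annotated genes with such a transcript, and these 7 were tested. Synpo had a single listed transcript, which the Control files did not list, and it was not tested. The kidneys came from wild-type male C57BL/6 mice, 8 weeks old at purchase, 5 in each of the groups labelled Control, AngII and AngII+QDG. AngII and AngII+QDG mice were infused with angiotensin II (Ang II), a peptide that raises blood pressure, at 500 ng/kg/min for 28 days from a pump under the skin, and Control mice were infused with saline. Qingda Granule (QDG), a herbal formula, was given by gavage at 1.145 g/kg/day to the AngII+QDG mice, and the other groups were given water. AngII vs. Control asks what Ang II infusion does to kidney transcripts, and AngII+QDG vs. AngII asks what QDG does during the infusion.

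Podocytes are the epithelial cells that wrap the capillaries of the glomerulus. Their interdigitating foot processes are joined by the slit diaphragm, a thin protein sheet that completes the filtration barrier, and an actin skeleton holds the foot processes in shape. Loss of slit diaphragm proteins or of the actin linkers leads to protein in the urine, and podocytes that are lost are hardly replaced.

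The values are FPKM, a level per transcript length and per sequencing depth, so they can be compared between genes. They were summed over the transcripts of each gene. The values imply 68924100 to 81319000 reads per mouse. Markers of proximal tubule summed to 2734 FPKM or more in each of the 15 mice, those of thick ascending limb to 769 to 1618 FPKM, and no adrenal cortex marker was listed, so the profile was that of mixed kidney tissue. The methods of the study do not state which part of the kidney was taken. In whole tissue, fewer cells of a type and less RNA per cell cannot be told apart. The files also list 12432 transcripts that the authors assembled and left without a gene name, so the sum of a member may miss reads. The 5 Control files list 41477 transcripts and the 10 other files 42310, with 1423 found only in the former and 2256 only in the latter. Of the 40054 transcripts in all files, the sums per gene used the 28871 that are annotated, and the difference between files coincides with Control against both infused groups and cannot be told apart from it. Overlapping genes are annotated at Nphs1 (Nphs1os and Rps12-ps4), Actn4 (Capn12 and Gm44699), Ptpro (Gm44258) and Magi2, and the strand of the libraries was not stated. The sources name rRNA depletion, and the methods of the study also name poly(A) isolation, so how far intron-retaining and noncoding transcripts were sampled is not known.

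The members differed widely in level. Over the 15 mice, Actn4 had a mean of 132 FPKM, Podxl 57.9 FPKM, Nphs1 11.1 FPKM, Cd2ap 3.90 FPKM, Ptpro 3.44 FPKM, Wt1 2.32 FPKM and Magi2 1.32 FPKM. Each of these genes was above the next in 14 or 15 of 15 mice, except that Cd2ap was above Ptpro in 4 of 15 mice only. The order of that pair by the mean rested on 1 Control mouse. The implied reads per mouse ranged from 81 to 933 for Magi2 and from 157 to 334 for Wt1, against 17577 to 29405 for Podxl, so the low members rested on fewer reads. The standard error of the log2 change in AngII vs. Control did not follow the reads. It was 0.20 for Actn4, at 23047 to 38064 reads, and 0.14 for Wt1.

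**Figure D1:**
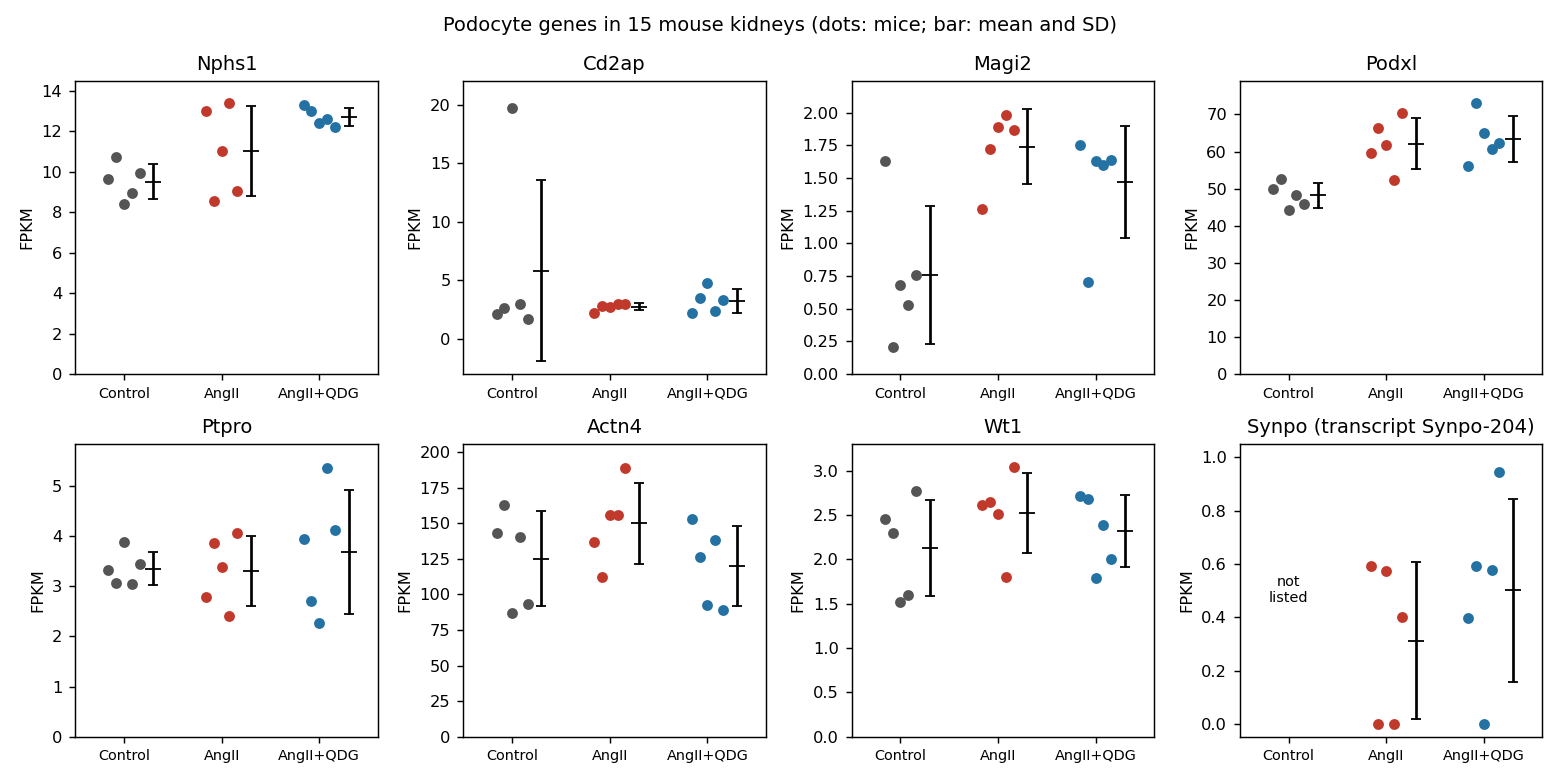
Level of each podocyte gene (FPKM summed over its transcripts, y axis) in each of 15 mice by group (x axis), with the mean and SD of 5 mice as a bar, and of the only listed Synpo transcript. Podxl is at 44.2 to 52.6 FPKM in Control and at 52.3 or more in every other mouse, and 1 Control mouse stands at 19.7 FPKM for Cd2ap.

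In AngII vs. Control, Podxl and Magi2 rose and the other 5 tested members did not pass the test. The test was limma's moderated test on log2(FPKM + 1), with p adjusted by Benjamini-Hochberg over the 12364 genes tested (SE is the standard error of a change), and a gene was called at an adjusted p under 0.05. The 2 of 7 members called stand beside 5.94% of all genes called in this comparison, 612 upregulated and 123 downregulated. At an unadjusted p under 0.05 there were also 2 of 7 members, against 22.8% of all genes. The split of called genes was 228 and 268 after quantile normalization between mice and 201 and 269 after median scaling, and no member was called under either. The median log2 fold change was 0.18 over the 7 members and 0.08 over all genes. In none of the 7 members were the 5 AngII mice separated from the 5 Control mice without overlap, and 7.92% of all genes were so separated.

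Nphs1 encodes nephrin, the transmembrane protein that spans the slit between foot processes (chromosome 7, 30458315 to 30487223, plus strand, GRCm38). Its levels were 9.61, 10.7, 8.40, 8.94 and 9.91 FPKM in the Control mice, 13.0, 8.53, 11, 13.4 and 9.03 FPKM in the AngII mice, and 13.3, 13.0, 12.4, 12.6 and 12.2 FPKM in the AngII+QDG mice. The AngII mice were spread across the range of both other groups, and all AngII+QDG mice were above all Control mice. The means were 9.50 ± 0.873, 11 ± 2.22 and 12.7 ± 0.460 FPKM (SD, n = 5 each). On the log2 scale the change was 0.18 in AngII vs. Control (SE 0.11, adjusted p = 0.374), 0.21 in AngII+QDG vs. AngII (adjusted p = 0.367) and 0.39 in AngII+QDG vs. Control (adjusted p = 0.140), all from limma. Part of the Nphs1 sum came from transcripts annotated as retaining an intron, which held 27.6% to 55.6% of it (median 38.1%). The main coding transcript alone, Nphs1-201, had means of 6.04, 6.21 and 7.92 FPKM in Control, AngII and AngII+QDG. Its log2 fold change was −0.01 in AngII vs. Control (adjusted p = 0.985 from limma over all transcripts), and the intron-retaining Nphs1-204 gave 0.26 (adjusted p = 0.292).

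Cd2ap encodes an adaptor that ties nephrin to the actin skeleton, and it is also made in many other cells (chromosome 17, 42792951 to 42876665, minus strand). Its single listed transcript was at 2.07, 2.65, 19.7, 2.92 and 1.68 FPKM in the Control mice, at 2.18 to 2.94 FPKM in the AngII mice and at 2.19 to 4.71 FPKM in the AngII+QDG mice. Control mouse 3 was far above every other mouse, and the remaining 14 overlapped. The log2 fold change in AngII vs. Control was −0.36 with all mice (95% interval −1.28 to 0.56, adjusted p = 0.671 from limma) and 0.17 without Control mouse 3. AngII+QDG vs. Control likewise went from −0.21 (adjusted p = 0.863) to 0.32 without that mouse. AngII+QDG vs. AngII gave 0.15 (adjusted p = 0.907). Against Control, Cd2ap therefore had no direction that was shared with and without that mouse.

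Magi2 encodes a scaffold protein that binds nephrin at the slit (chromosome 5, 19227036 to 20704792, plus strand). The Control mice had 1.63, 0.208, 0.679, 0.525 and 0.760 FPKM, the AngII mice 1.26, 1.72, 1.89, 1.98 and 1.87 FPKM, and the AngII+QDG mice 1.75, 0.707, 1.63, 1.60 and 1.64 FPKM. Control mouse 1 reached the level of the infused mice, and AngII+QDG mouse 2 was at the level of the other Control mice. Magi2 rose in AngII vs. Control by 0.68 on the log2 scale (SE 0.19, adjusted p = 0.0472 from limma), from 0.759 ± 0.528 to 1.74 ± 0.283 FPKM (SD, n = 5 each). The call lay close to the threshold. It was lost in 7 of 10 alternative settings (adjusted p from 0.0523 to 0.489) and in 12 of 15 fits that left out 1 mouse. The size also moved with the scale, to 1.3 with a pseudocount of 0.1 (adjusted p = 0.0586 from limma), 1.22 with the length-weighted sum (0.0523) and 0.99 with TPM (0.0576), and to 0.50 for the most abundant transcript (0.489). The call held without Control mouse 1, AngII mouse 1 or AngII+QDG mouse 2, and was lost without any other single mouse (adjusted p = 0.0542 to 0.0949 from limma). AngII+QDG vs. AngII gave −0.17 (95% interval −0.57 to 0.23, adjusted p = 0.712), and AngII+QDG vs. Control gave 0.51 (adjusted p = 0.232).

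The 2 listed Magi2 transcripts alternated between the mice in which either was high. Magi2-205 was at 1.5 FPKM in Control mouse 1, 1.20 and 1.78 in AngII mice 1 and 5, and 1.75 and 1.60 in AngII+QDG mice 1 and 4, and at 0.354 FPKM or less in the other 10 mice. Magi2-206 was at 0.125 FPKM or less in those 5 mice and between 1.42 and 1.81 FPKM in AngII mice 2, 3 and 4 and AngII+QDG mice 3 and 5. In Control mice 2, 3, 4 and 5 and AngII+QDG mouse 2 neither was high, with Magi2-206 at 0 to 0.532 FPKM. Neither transcript was called on its own. Magi2-205 holds a 42-base coding exon (exon 13 of its 22, chr5:20543585-20543626, plus strand, GRCm38) that Magi2-206 skips, and it is shown because it lies within the stretch both transcripts otherwise share.
Magi2-205 exon 13: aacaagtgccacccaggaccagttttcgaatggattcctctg

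Podxl encodes podocalyxin, the sialic-acid-rich mucin that coats the apical surface of foot processes and is also found on vascular endothelium (chromosome 6, 31519488 to 31563981, minus strand). The Control mice had 50.0, 52.6, 44.2, 48.2 and 45.8 FPKM, the AngII mice 59.7, 66.3, 61.7, 52.3 and 70.3 FPKM, and the AngII+QDG mice 56.1, 73.1, 64.9, 60.8 and 62.2 FPKM. Control mouse 2 and AngII mouse 4 were level with each other, and apart from them every infused mouse was above every Control mouse. Podxl rose in AngII vs. Control from 48.2 ± 3.33 to 62.1 ± 6.84 FPKM (SD, n = 5 each), or by 0.35 on the log2 scale (SE 0.085, adjusted p = 0.0277 from limma). It stood at 63.4 ± 6.29 FPKM in AngII+QDG, and AngII+QDG vs. AngII gave 0.03 (95% interval −0.15 to 0.21, adjusted p = 0.894). AngII+QDG vs. Control gave 0.39 with no overlap (unadjusted p = 0.000439, adjusted p = 0.0826 from limma), and this passed the threshold without Control mouse 2 (adjusted p = 0.0490). Podxl-201, the main coding transcript, made up 96.5% to 99.1% of the sum, and its own log2 fold change in AngII vs. Control was 0.35 (adjusted p = 0.0699 over all transcripts).

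The Podxl call in AngII vs. Control was lost after quantile normalization (log2 fold change 0.28, adjusted p = 0.121 from limma) and median scaling (0.26, adjusted p = 0.0942). It was also lost without Control mouse 1, 3 or 5 or AngII mouse 2 or 5 (adjusted p = 0.0524 to 0.0694). The summed markers of glomerular endothelium, a cell type that also makes podocalyxin, were 83.1 to 122 FPKM (median 98.2) in Control, 107 to 122 FPKM (median 116) in AngII and 88.5 to 127 FPKM (median 123) in AngII+QDG. Of these 7 markers, 1 rose in AngII vs. Control (Ehd3), and the part of these markers in the Podxl result was not tested.

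Ptpro encodes a receptor tyrosine phosphatase of the apical podocyte membrane (chromosome 6, 137252319 to 137463233, plus strand). It was at 3.33, 3.07, 3.87, 3.04 and 3.44 FPKM in Control, 2.79, 3.85, 3.39, 2.40 and 4.06 FPKM in AngII, and 3.94, 2.71, 2.26, 5.35 and 4.12 FPKM in AngII+QDG. The groups overlapped fully, with the widest spread in AngII+QDG. The log2 fold change was −0.03 in AngII vs. Control (95% interval −0.39 to 0.33, adjusted p = 0.942 from limma), 0.10 in AngII+QDG vs. AngII (adjusted p = 0.829) and 0.07 in AngII+QDG vs. Control (adjusted p = 0.891). A second coding transcript, Ptpro-207, was listed outside the Control files only and was above 0 in 1 AngII mouse (0.944 FPKM) and 3 AngII+QDG mice (2.62, 0.223 and 0.873 FPKM).

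Synpo encodes synaptopodin, an actin-binding protein of foot processes (chromosome 18, 60593973 to 60660142, minus strand). Of its 12 annotated transcripts the files list 1, Synpo-204, which is annotated as not coding for protein. It was at 0.592, 0, 0.573, 0 and 0.400 FPKM in the AngII mice and at 0.397, 0.591, 0, 0.576 and 0.944 FPKM in the AngII+QDG mice. These values overlapped, Control values were not analysed here, and none of them measures the synaptopodin mRNA.

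Actn4 encodes α-actinin-4, which crosslinks actin filaments in podocytes and in many other cells (chromosome 7, 28893248 to 28962340, minus strand). Its sum was 143, 163, 87.1, 140 and 93.4 FPKM in Control, 137, 112, 156, 156 and 189 FPKM in AngII, and 153, 126, 92.6, 138 and 89.1 FPKM in AngII+QDG. The groups overlapped. The log2 fold change was 0.28 in AngII vs. Control (95% interval −0.16 to 0.72, adjusted p = 0.458 from limma), −0.33 in AngII+QDG vs. AngII (−0.77 to 0.11, adjusted p = 0.452) and −0.06 in AngII+QDG vs. Control (adjusted p = 0.933).

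Most of the spread in the Actn4 sum sat in Actn4-210, a short coding transcript of 7 exons at the 3′ end of the gene. It was at 4.86 FPKM or less in 7 mice and at 63.8 to 79.4 FPKM in 8 mice, with no mouse in between. The low mice were 2 Control, 2 AngII and 3 AngII+QDG mice, so low and high mice occurred in every group. The long coding transcript of 21 exons, Actn4-201, was present in every mouse, at 70.8 to 88.0 FPKM in Control, 77.3 to 116 FPKM in AngII and 59.8 to 107 FPKM in AngII+QDG. It gave a log2 fold change of 0.23 in AngII vs. Control (adjusted p = 0.492 from limma over all transcripts) and −0.22 in AngII+QDG vs. AngII (adjusted p = 0.636). Actn4-202, a coding transcript of 13 exons, ranged from 0.00836 to 25 FPKM and overlapped between groups.

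These transcripts differ in alternative coding exons, which are shown because they tell the transcripts apart. Actn4-201 has an 81-base exon 19 (chr7:28895432-28895512, minus strand, GRCm38) where Actn4-210 has a 66-base exon (chr7:28895121-28895186). They lie toward the end of the coding sequence, where α-actinins carry their EF-hand domain.
Actn4-201 exon 19: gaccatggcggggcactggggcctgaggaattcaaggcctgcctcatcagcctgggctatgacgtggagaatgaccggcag
Actn4-210 exon 5: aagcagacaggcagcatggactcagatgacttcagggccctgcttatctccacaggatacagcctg
Actn4-201 and Actn4-202 use different 86-base versions of exon 8 (chr7:28911490-28911575 and chr7:28909903-28909988), and capitals mark the 21 positions at which they differ.
Actn4-201 exon 8: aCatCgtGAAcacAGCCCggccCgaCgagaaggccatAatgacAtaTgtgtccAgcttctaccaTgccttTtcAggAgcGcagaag
Actn4-202 exon 8: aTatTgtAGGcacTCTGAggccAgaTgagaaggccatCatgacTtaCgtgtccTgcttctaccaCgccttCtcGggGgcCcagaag

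**Figure D2:**
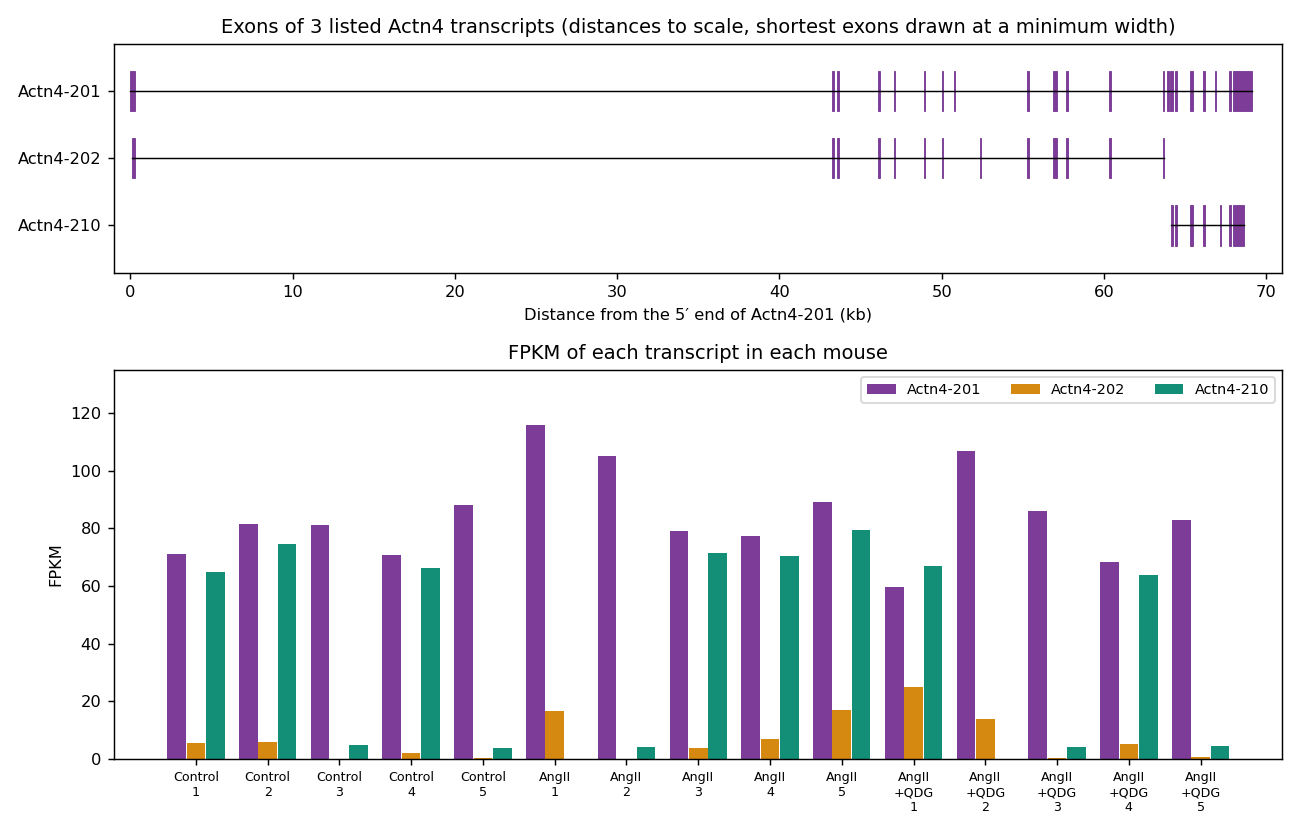
Top, exons of 3 listed Actn4 transcripts by distance from the 5′ end of Actn4-201 (kb, x axis). Bottom, the level of each transcript (FPKM, y axis) in each of 15 mice (x axis), where Actn4-210 is at 63.8 FPKM or more in 8 mice and at 4.86 FPKM or less in 7 mice, in all 3 groups.

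Wt1 encodes the zinc-finger transcription factor that keeps podocytes differentiated (chromosome 2, 105126529 to 105173616, plus strand). It was at 2.45, 2.30, 1.52, 1.60 and 2.77 FPKM in Control, 2.61, 2.65, 2.51, 1.80 and 3.04 FPKM in AngII, and 2.71, 2.68, 1.79, 2.39 and 2.0 FPKM in AngII+QDG. All groups overlapped. The log2 fold change was 0.18 in AngII vs. Control (95% interval −0.115 to 0.475, adjusted p = 0.478 from limma), −0.09 in AngII+QDG vs. AngII (adjusted p = 0.812) and 0.09 in AngII+QDG vs. Control (adjusted p = 0.802). Its most abundant tested transcript, Wt1-209, was at 0.815 ± 0.437, 0.852 ± 0.359 and 1.14 ± 0.458 FPKM (SD, n = 5 each) in Control, AngII and AngII+QDG.

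In AngII+QDG vs. AngII, no member was called by limma and none had an unadjusted p under 0.05, against 1.81% and 16.4% of all genes. None of the 7 was separated without overlap, against 4.99% of all genes. The median log2 fold change was 0.03 over the members and −0.02 over all genes. The 95% intervals still allow changes of −0.77 to 1.07 for Cd2ap, −0.77 to 0.11 for Actn4 and −0.57 to 0.23 for Magi2. They also allow −0.26 to 0.45 for Ptpro, −0.02 to 0.45 for Nphs1, −0.38 to 0.21 for Wt1 and −0.15 to 0.21 for Podxl. Changes within these bounds were not excluded. In AngII+QDG vs. Control no member was called by limma, against 0.129% of all genes, and 3 of 7 had an unadjusted p under 0.05 (Podxl, Nphs1 and Magi2), against 14.4% of all genes. Nphs1 and Podxl were higher in all 5 AngII+QDG mice than in any Control mouse, 2 of 7 members, against 3.64% of all genes separated in either direction. The 3 comparisons share their groups pairwise and are not independent of each other.

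**Figure D3:**
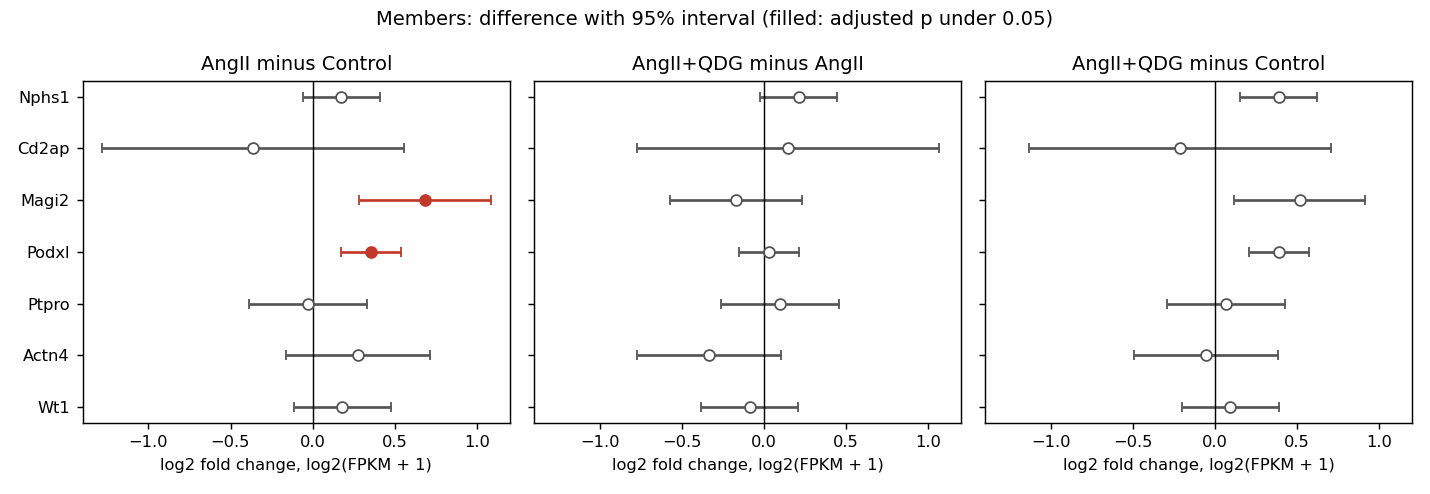
Change in log2(FPKM + 1) between group means (x axis) of the 7 tested podocyte genes (y axis) with its 95% interval in the 3 comparisons, filled where the adjusted p was under 0.05. Podxl (0.35) and Magi2 (0.68) are filled in AngII minus Control, and no gene is filled in the other comparisons.

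Single transcripts were tested by the same method. In AngII vs. Control none of the 16 tested member transcripts was called by limma, against 0.691% of the 28812 transcripts tested. None was called in AngII+QDG vs. AngII or in AngII+QDG vs. Control either, against 0.0972% and 0.0243% of all. At an unadjusted p under 0.05 by limma there were 3, 0 and 2 of the 16 member transcripts in these comparisons, against 15.9%, 11.3% and 10% of all transcripts. The study used a fold change of at least 2 with an unadjusted p under 0.05, without stating the scale of the fold. With the fold taken on log2(FPKM + 1), which shrinks low transcripts, no member transcript passed in any of the 3 comparisons, against 2.88%, 2.24% and 2.02% of all transcripts. With the fold taken between group means of FPKM, a setting chosen after seeing the data, 1, 0 and 1 of the 16 passed, against 6.84%, 4.09% and 4.31% of all. They were Actn4-203 in AngII vs. Control (means of 1.15 and 0.495 FPKM) and Nphs1-202 in AngII+QDG vs. Control (1.21 and 0.441 FPKM), both annotated as retaining an intron, and the mice of the groups compared overlapped in both.

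A wider list of 55 podocyte genes, the 8 members not included, held 5 genes that rose in AngII vs. Control, Sema3g, Col4a3, Ezr, Vcl and Vegfa. They were 5 of the 42 tested, and none fell, beside the 5.94% of all genes called. Genes of this list, such as Ezr and Vegfa, are also made by tubule, so the counts do not describe podocyte RNA alone. The median log2 fold change of the 42 was 0.13, against 0.08 over all genes. After quantile normalization or median scaling 1 of the 5 remained called, Sema3g. The 13 genes not tested were Kirrel2, Trpc6, Crb2, Plce1, Robo2, Inf2, Anln, Dnm1, Plekhh2, Thsd7a, Lmx1b, Foxd1 and Col4a5.

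Sema3g, a secreted semaphorin made by podocytes, had the lowest p of all 12364 genes in AngII vs. Control. It was at 13.9, 16.6, 16.5, 15.9 and 17.0 FPKM in Control, 29.0, 36.0, 28.3, 28.5 and 35.2 FPKM in AngII, and 25.7, 28.5, 27.3, 20.8 and 24.4 FPKM in AngII+QDG. Every infused mouse was above every Control mouse. Which cells of the tissue the Sema3g transcripts came from was not tested. AngII vs. Control gave a log2 change of 0.93 (SE 0.095, adjusted p = 0.00162 from limma), and the call held in all 10 alternative settings and without each mouse in turn. It was −0.30 in AngII+QDG vs. AngII (adjusted p = 0.124) and 0.63 in AngII+QDG vs. Control (adjusted p = 0.0213), where it was the 1 gene called of 42, against 0.129% of all genes. The AngII+QDG vs. Control call was lost with only the compared groups in the model (adjusted p = 0.0662 from limma) and without Control mouse 1 or 4 or AngII+QDG mouse 1, 2 or 3 (adjusted p = 0.0535 to 0.0819).

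Col4a3 encodes the α3 chain of type IV collagen, part of the mature glomerular basement membrane. It was at 28.3 to 32.6 FPKM in Control, at 36.3, 46.9, 67.1, 36.5 and 47.7 FPKM in AngII, and at 24.1 to 28.8 FPKM in AngII+QDG. All AngII mice were above all mice of both other groups. It rose in AngII vs. Control (log2 change 0.56, SE 0.13, adjusted p = 0.0261 from limma) and was the only gene of the list that fell in AngII+QDG vs. AngII (−0.78, SE 0.13, adjusted p = 0.0148), 1 of 42 against 1.81% of all genes. Both changes use the same AngII mice. AngII+QDG vs. Control gave −0.22 (adjusted p = 0.463). With only the compared groups in the model, neither change was called (adjusted p = 0.0694 and 0.0579).

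The other called genes were Ezr, Vcl and Vegfa. Ezrin (Ezr) links podocalyxin to actin and is abundant in proximal tubule, vinculin (Vcl) sits at adhesion sites, and Vegfa, the endothelial growth factor, is made by podocytes and tubule. Ezr was at 144 ± 5.81, 170 ± 12.8 and 149 ± 5.10 FPKM (SD, n = 5 each) in Control, AngII and AngII+QDG, with a log2 fold change of 0.24 in AngII vs. Control (adjusted p = 0.0225 from limma). Vcl went from 8.79 ± 0.938 to 12.2 ± 2.15 FPKM (0.42, adjusted p = 0.0486) and Vegfa from 33.4 ± 2.74 to 44.7 ± 4.61 FPKM (0.41, adjusted p = 0.0309). In each of these genes every AngII mouse was above every Control mouse. Over the whole list, 5 of 42 genes were so separated upward, against 7.92% of all genes in either direction. The separation uses the same values as the test and adds nothing to the calls. None was called in AngII+QDG vs. AngII, where the adjusted p was 0.0880 for Ezr, 0.352 for Vcl and 0.630 for Vegfa. The most abundant Vegfa transcript alone gave −0.33 in AngII vs. Control (adjusted p = 0.797), the opposite sign to the sum.

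**Figure D4:**
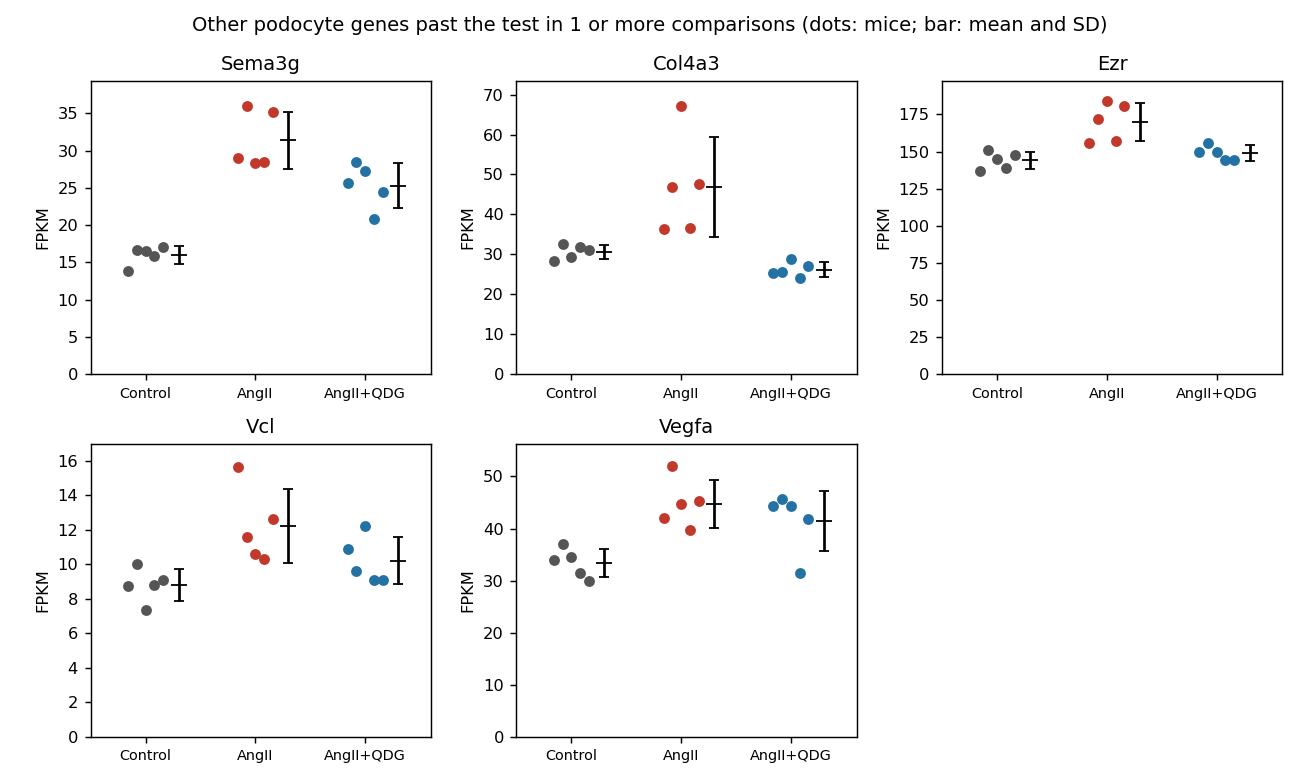
Level (FPKM summed over transcripts, y axis) of the 5 further podocyte genes that passed the test, in each of 15 mice by group (x axis), with the mean and SD of 5 mice as a bar. Every AngII mouse is above every Control mouse in each panel, and Col4a3 in AngII+QDG lies at 24.1 to 28.8 FPKM.

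The genes of the list were also read by role and level. Among the slit diaphragm genes of this list were Fat1, a giant cadherin (mean over 15 mice 6.43 FPKM), the adaptor Nck2 (6.36 FPKM) and the junction scaffold Tjp1 (4.98 FPKM). Arhgdia (98.9 FPKM), Arhgap24 (65.7 FPKM) and Myh9 (40.0 FPKM), the last of which encodes a non-muscle myosin, led the actin genes. The peptidase Enpep (51.5 FPKM) and the ezrin-binding scaffold Slc9a3r2 (30.7 FPKM) followed Ezr at the apical surface. The transcription factors included Tcf21 (10.2 FPKM), Zhx2 (6.90 FPKM) and Dach1 (3.94 FPKM). The integrin chain Itgb1 (67.8 FPKM), its partner Cd151 (50.2 FPKM) and Ilk (37.0 FPKM) led the adhesion genes, and Angptl4 (35.8 FPKM) stood with Vegfa and Sema3g. Apart from Ezr, Vegfa and Sema3g, none of the genes named here by level passed the test in any comparison.

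**Figure D5:**
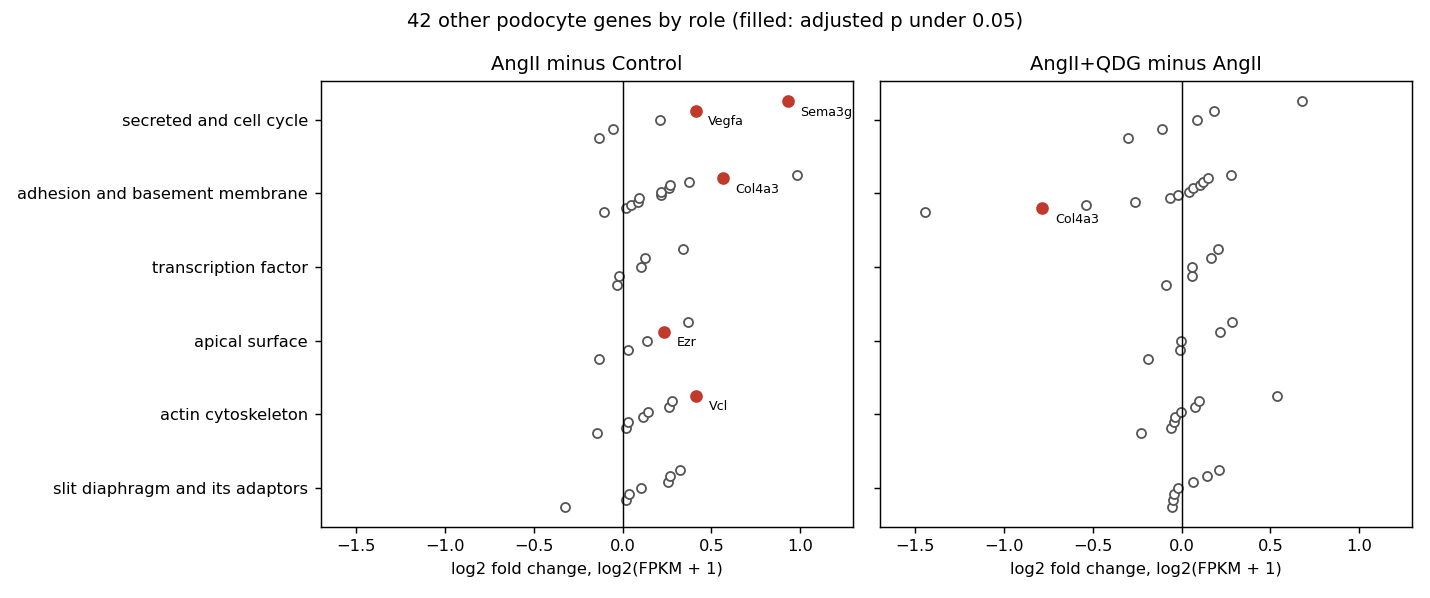
Change in log2(FPKM + 1) between group means (x axis) of the 42 tested further podocyte genes by role (y axis), 1 point per gene, filled and named where the adjusted p was under 0.05. In AngII minus Control 34 of 42 values are positive, against 64.8% of all genes, and 5 are filled, and in AngII+QDG minus AngII 21 are positive, against 46.3% of all genes, and Col4a3 is filled.

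Markers of other cells were read beside these counts, as values only, and their part in the results was not tested. Mesangial and pericyte markers summed to 4.37 to 11.7 FPKM in Control, 9.49 to 17.7 FPKM in AngII and 6.98 to 16.8 FPKM in AngII+QDG, and 1 of 4 rose in AngII vs. Control (Pdgfrb). Of the intercalated cell markers 1 of 2 tested rose (Slc26a4), at sums of 53.8 to 65.0 FPKM in Control, 68.1 to 98.7 FPKM in AngII and 69.3 to 101 FPKM in AngII+QDG. Proximal tubule markers summed to 2739 to 2879 FPKM in Control, 2886 to 4086 FPKM in AngII and 2734 to 3437 FPKM in AngII+QDG, so every AngII mouse was above every Control mouse. Most of this sum was the phosphate transporter Slc34a1, with means of 2019 FPKM in Control and 2500 FPKM in AngII. It was itself separated (log2 fold change 0.29, unadjusted p = 0.0175, adjusted p = 0.125 from limma in AngII vs. Control). The other markers of this list went both ways in AngII vs. Control. Slc22a6 (0.21) and Slc5a2 (0.12) were positive, and Cubn (−0.17, unadjusted p = 0.0297 from limma) and Lrp2 (−0.10) were negative. No marker of proximal tubule, thick ascending limb, distal convoluted tubule, principal cells, leukocytes or adipocytes was called in any of the 3 comparisons by limma. The leukocyte marker Adgre1 was lower without overlap in AngII than in Control (−0.39, unadjusted p = 0.0511 from limma). In AngII+QDG vs. AngII, Umod (0.36), Kcnj1 (0.24) and Slc12a1 (1.25) of thick ascending limb had unadjusted p of 0.0158, 0.0223 and 0.0236 from limma. Of all genes, 16.4% were under 0.05 there. Over all mice, leukocyte markers summed to 2.59 to 7.82 FPKM with Cd3e not listed, adipocyte markers to 0.0135 to 21.3 FPKM, distal convoluted tubule markers to 57.2 to 154 FPKM and principal cell markers to 113 to 386 FPKM.

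Variation within groups was described for 4 members. For Nphs1, Podxl, Wt1 and Ptpro, values centred within each group had Pearson r between −0.50 (Nphs1 and Ptpro) and 0.43 (Podxl and Wt1) over 15 mice, a description only, since the mice share their groups. The 5 genes nearest to the mean of these 4 were Eea1 (r = 0.89), Atxn2l (0.86), Piga (0.86), Smarcd2 (0.85) and Lbr (0.84), picked as the highest of 12364 and none of them on the podocyte lists. By the same measure the 42 further podocyte genes ran from r = −0.47 (Npnt) to 0.70 (Kirrel, position 56), and Wt1, against the mean of the other 3, r = 0.69 and position 59. Nphs1, Podxl and Ptpro, each against the other 3, had r between −0.46 and −0.03. Actn4 had r = 0.47 and position 791, Magi2 r = −0.15 and Cd2ap r = −0.58.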

How the data were processed

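Kidney RNA of 15 mice was rRNA-depleted and sequenced in pairs on an Illumina instrument, and the methods of the study also name a poly(A) isolation kit. For each mouse the authors deposited a value per transcript, on build mm10 with limma named in the submitters' processing notes. The aligner is not given in the sources used here. The deposited unit was inferred as FPKM, because value times transcript length (GENCODE M21) was within 0.05 of a whole multiple of 1 constant for 98.48% to 98.68% of values under 200 reads. Of 31301 Ensembl identifiers 31254 matched. FPKM were summed per gene over the transcripts listed in all 15 files. Genes that reached 1 FPKM in 5 or more mice were tested with limma 3.58.1 in R 4.3.3 (a mean per group, trend, 12 residual degrees of freedom) on log2(FPKM + 1), which understates changes of low genes. P-values were adjusted by Benjamini-Hochberg. The script was tested on simulated data. Members and lists were chosen with earlier results of these data known. Some podocyte genes are not reported here and are in no list or count of the lists. Named were all members with their most abundant transcripts, called genes and the 3 highest of each role. Further transcripts were named after their values were seen. Alternatives were another pseudocount (0.1), no filter, other scalings, robust fits, the groups compared alone, other transcript sums and leaving out each mouse. The length-weighted sum was chosen after seeing the data. The exon sequences are from GENCODE M21 (GRCm38).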

Additional observations from a re-analysis of the deposited data

Results flagged for a closer look

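In groups of 5, a mouse was marked when its gap to the nearest other, divided by the range, was above Dixon's critical value of 0.71, and chance marks about 1 in 20 groups. Of 36 groups screened, 4 were marked. Cd2ap had its highest Control mouse at 19.7 FPKM and its lowest AngII mouse at 2.18 FPKM. Magi2 had its lowest AngII+QDG mouse at 0.707 FPKM. Vegfa had its lowest AngII+QDG mouse at 31.4 FPKM.

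Among transcripts listed outside the Control files only, Synpo-204 was above the level of 3 reads in 7 of 10 mice, up to 0.944 FPKM, and Ptpro-207 in 4 of 10 mice, up to 2.62 FPKM. Control values of these transcripts were not analysed here.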

How the results depend on the processing

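No paired analysis was possible because the labels number no mice, and the numbers used here only name the mice within a group. Members called in AngII vs. Control numbered 2, and 0 after quantile normalization or median scaling, and 1 with a pseudocount of 0.1, TPM, only the compared groups, the most abundant transcript or the length-weighted sum (0 to 2 without 1 mouse, with 0 without Control 3 or 5 or AngII 2 or 5). They stayed at 0 in AngII+QDG vs. AngII, and at 0 to 1 without 1 mouse in AngII+QDG vs. Control. Further podocyte genes called in AngII vs. Control were 5, and 1 with either scaling, 2 with the compared groups alone and 3 with TPM or the most abundant transcript (1 to 8 without 1 mouse, with 1 without Control 1 or AngII 5, 2 without Control 3 or AngII 2, 3 without Control 4 or 5, and 8 without Control 2). They were 0 with the compared groups alone and 2 with the length-weighted sum in AngII+QDG vs. AngII, and 0 with the compared groups alone in AngII+QDG vs. Control (0 to 1 without 1 mouse, Sema3g being lost without Control 1 or 4 or AngII+QDG 1, 2 or 3). All genes called in AngII vs. Control were 470 with median scaling, 461 with the compared groups alone and 352 with the most abundant transcript (337 to 798 without 1 mouse). In AngII+QDG vs. AngII they were 68 with the compared groups alone (53 to 254 without 1 mouse), and in AngII+QDG vs. Control 9 with TPM, 4 with the compared groups alone, 80 with unlisted transcripts as 0 and 6 with the most abundant transcript (0 to 110 without 1 mouse). Member transcripts called were 0 to 1 without 1 mouse in AngII vs. Control.

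Calls of Col4a3 in AngII vs. Control were lost without Control 1 or 3 or AngII 2 or 5 (adjusted p up to 0.0624), of Ezr without Control 1 or AngII 2 or 5 (up to 0.0575), of Vcl in 11 of 15 such fits (up to 0.112) and of Vegfa in 7 of 15 (up to 0.0725), all from limma. Of the changes that were called, only that of Vegfa in AngII vs. Control reversed its sign, and the reversals were as follows. With the most abundant transcript, log2 fold changes were −0.33 for Vegfa and −0.012 for Nphs1 in AngII vs. Control, 0.68 for Vegfa and 0.20 for Wt1 in AngII+QDG vs. AngII, and 0.017 for Actn4 in AngII+QDG vs. Control. Ptpro was 0.041 in AngII vs. Control with unlisted transcripts as 0. In AngII+QDG vs. Control, quantile normalization gave −0.028 for Ptpro and −0.0053 for Wt1, and median scaling −0.011 for Ptpro and −0.029 for Ezr. Without 1 mouse, the ranges that crossed 0 were −0.57 to 0.17 (Cd2ap) and −0.092 to 0.051 (Ptpro) in AngII vs. Control, −0.026 to 0.079 (Podxl) and −0.024 to 0.22 (Ptpro) in AngII+QDG vs. AngII, and −0.18 to 0.050 (Actn4), −0.42 to 0.32 (Cd2ap) and −0.054 to 0.19 (Ptpro) in AngII+QDG vs. Control. The cause was not tested for any of these.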

Other observations

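A pair of podocyte genes without a call are named here after their values were seen. In AngII vs. Control, Slc9a3r2, the scaffold between podocalyxin and ezrin, had means of 25.6 and 33.2 FPKM (log2 fold change 0.37, unadjusted p = 0.00366, adjusted p = 0.0570 from limma).

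Col4a4, whose product assembles with that of Col4a3, had means of 4.09 FPKM in Control, 9.07 FPKM in AngII and 2.12 FPKM in AngII+QDG, without a call (adjusted p = 0.270 in AngII vs. Control and 0.161 in AngII+QDG vs. AngII, from limma).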
